A study of Mus musculus with 10 samples.

Results

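Nearly fully methylated cytosines made up a small part of the measured genome of mouse embryos at embryonic day 7.5, and most of them lay inside protein-coding genes. They were chosen as autosomal positions at which more than 90% of all reads called the cytosine methylated and which had at most 15 measured positions within 100 bp, both strands and the position itself included. Of 1560573 autosomal positions with such a sparse surrounding, 33843 met the rule, or 2.17%. All autosomal positions measured numbered 2101419, and 39626 of these exceeded 90% at any density. The level chose these positions, so their levels are a description and were not tested.

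The series holds 10 samples of embryo DNA, 5 titled control and 5 titled arsenic, measured by reduced representation bisulfite sequencing, in which a restriction enzyme frees CpG-rich fragments and bisulfite turns unmethylated cytosines into thymines. The labels give the embryonic day for both groups and no dose, route, strain, sex or number of embryos per sample. The counts of the deposited table fall into 10 numbered sets whose headers name no sample, and 0 of them could be tied to one, so arsenic and control were not compared. A numbered set is referred to as a library column, and spread is given as the median and range of the 10 columns. Depth, the summed reads over all positions of a column, ranged from 73509873 to 127743904, and median reads per column at the nearly fully methylated positions ranged from 26 to 43, against 26 to 44 at all sparse positions. Column 9 had an unusually large share of sparse positions over 90% on its own reads, 7.93% against 4.66 to 6.14% in the others.

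In mammals, DNA methylation falls mainly on CpG dinucleotides. The enzymes Dnmt3a and Dnmt3b add it anew, and Dnmt1 with its partner Uhrf1 copies it to the new strand after replication. Around implantation the embryonic genome regains methylation that was lost in the first cleavages. Starts of active genes in CpG islands stay free of it, while the body of transcribed genes, which carries the histone mark H3K36me3 that Dnmt3b recognises, is often densely methylated.

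Sequence could be shown only for the few nearly fully methylated positions near gene starts. Starts of non-coding genes were included, and whether they lie inside a protein-coding gene was not examined. Some of these few positions may therefore be gene-body positions as well. They do not stand for the larger number inside genes, whose sequence was otherwise not analysed here. RefSeq promoter windows, which run from 250 bases before to 50 bases after a start in the build GRCm38.p6, were available for 31396 autosomal starts, and 8441 of these held at least 1 sparse position. Of 145239 measured positions that could be set against the windows, 145234 were at the letters CG. Among 47061 sparse positions in the windows, 52, or 0.110%, were nearly fully methylated, and they lay in 30 windows. Of these windows 23 belonged to long non-coding RNA genes and 7, or 23.3%, to protein-coding genes, whereas 77.3% of the windows with a sparse position belonged to protein-coding genes. The windows with a member were poorer in CpG, with a median of 10 CG dinucleotides against 19, and in G and C, with 53.3% against 60.3%. The letters CCGG, the MspI site, which reads the same on both strands, surrounded 16 of the 52 members, or 30.8%, and 15.2% of the sparse positions in the windows, and at least 1 such site was present in 53.5% of all windows. The following stretches lie upstream of the start and are written 5′ to 3′ on the gene's strand, with the CG of each nearly fully methylated position in capitals. They are drawn from the long non-coding genes with at least 2 such positions upstream and the protein-coding genes with any. Genes known only by a LOC number were left out, and not every autosome was included. The list is therefore not complete, and other named genes may meet the same rule.
Gm34061, chr14:99578231-99578465, plus strand: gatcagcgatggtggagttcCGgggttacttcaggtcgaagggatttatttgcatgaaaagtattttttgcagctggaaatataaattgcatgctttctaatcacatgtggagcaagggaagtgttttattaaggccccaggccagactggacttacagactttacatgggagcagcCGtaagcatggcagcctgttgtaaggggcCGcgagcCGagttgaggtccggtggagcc
1700094J05Rik, chr10:76388931-76388977, plus strand: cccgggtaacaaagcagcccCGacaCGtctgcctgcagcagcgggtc
Gm16059, chr15:79426353-79426394, plus strand: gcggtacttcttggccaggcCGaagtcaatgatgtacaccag
4930478L05Rik, chr16:78560246-78560293, plus strand: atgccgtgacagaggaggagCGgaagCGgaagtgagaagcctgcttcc
Gm12786, chr4:107027220-107027263, minus strand: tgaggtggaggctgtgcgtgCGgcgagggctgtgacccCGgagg
Gm34536, chr5:26389254-26389283, plus strand: ttcctggccagtcgagcgcgCGcaagaccg
Vwa7, chr17:35016556-35016578, plus strand: gcggaggcctgccctgggccCGc
Cort, chr4:149126769-149126810, minus strand: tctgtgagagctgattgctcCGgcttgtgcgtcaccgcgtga
In the Gm34061 stretch 5 of 13 measured positions were members, at 91.6 to 93.3%, and the 8 others had 72.8 to 89.4%, so the whole stretch was highly methylated. The mean of its members over the 10 columns ranged from 87.1 to 97.5%. The 2 members of Gm16059 are both strands of the same CpG, at 91.5% and 92.6%, as are those of Gm34536, at 90.6% and 92.0%. In 1700094J05Rik, 2 neighbouring CpGs had 93.5% and 97.6%, and 1 other measured position 86.2%. Vwa7, a protein with a von Willebrand factor A domain, had 1 member at 93.1% that lay 3 bases before the start, beside 3 other positions at 79.0 to 88.5%. Cort, which encodes the neuropeptide cortistatin, had a single measured position at 90.8% over 315 reads, and it fell to 90% or below when some columns were left out.

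Gene bodies held most of the nearly fully methylated positions. Positions inside protein-coding genes and more than 1000 bp from any gene end made up 71.5% of the members (24211), against 45.2% of all sparse positions. Positions within 1000 bp of a gene end made up 5.58% of members against 14.5% of sparse positions, and positions outside genes 22.9% against 40.3%. As a share of each class, 3.43% of sparse positions inside genes, 0.834% at gene ends and 1.23% outside genes exceeded 90%. With each column left out in turn these shares ranged from 3.40 to 3.60% inside, 0.825 to 0.879% at ends and 1.22 to 1.30% outside, so the 3 ranges did not overlap. The mean levels of sparse positions inside and outside genes lay closer together in proportion, at 57.5% (range 56.2 to 59.7%) and 54.4% (range 52.8 to 57.0%). The lowest, median and highest level were each higher inside genes. These level ranges are over single columns. They are not comparable with the ranges of the shares, which leave out 1 column at a time and are narrower by construction. Reads did not separate the classes, with a median of 362 summed reads per member inside genes and 355 outside.

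The share of positions inside genes rose with the level from the lowest levels up to 95%. Among sparse positions at 50 to 60% methylation, 43.1% lay inside genes and 52.4% outside. At 80 to 85% the shares were 63.5% and 31.4%, at 90 to 95% 71.7% and 22.7%, and above 95% 70.2% and 24.7%. The rule's threshold fell within this gradient. The 9218 members at up to 91% lay inside genes in 70.9% of cases, and the 11166 sparse positions over 89% and up to 90%, just outside the rule, in 70.7%.

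**Figure D1:**
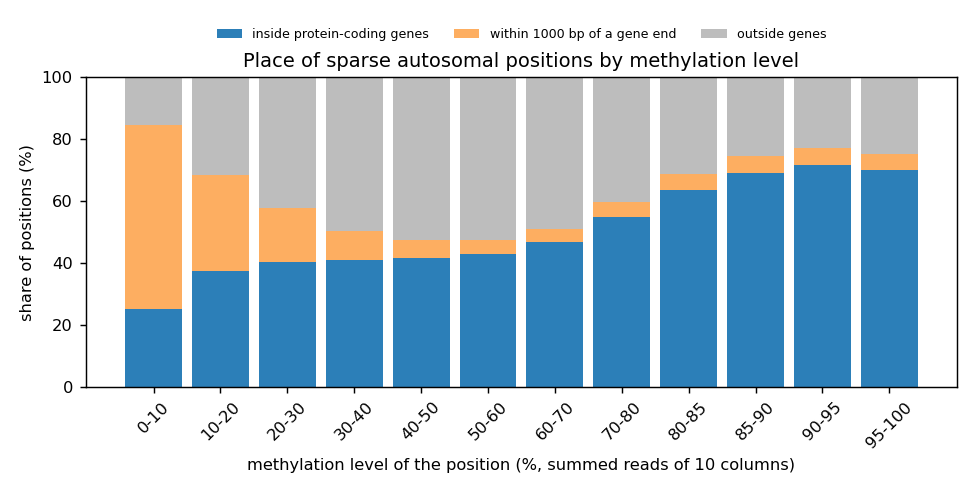
Share of sparse autosomal positions (y axis, %) inside protein-coding genes, within 1000 bp of a gene end and outside genes, by the methylation level of the position over the summed reads (x axis, %). The share inside genes grows from 25.3% at levels up to 10% to 71.7% at 90 to 95%, and gene ends dominate only the lowest band.

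Gene starts and gene ends differed. The strand of 16457 of 20665 autosomal protein-coding genes was known from the promoter table, which allowed the 5′ and 3′ ends to be told apart. Within 1000 bp of a 5′ end alone, 112 of 138233 sparse positions were nearly fully methylated, or 0.0810%, and the mean level was 11% (range 10.7 to 11.5% over the columns). Within 1000 bp of a 3′ end alone it was 1397 of 35494, or 3.94%, at a mean level of 57.1% (range 55.9 to 59.2%). The ranges of the level did not overlap. The 3′ ends were thus close to the inside of genes. Positions near both kinds of end had 71 of 7411, or 0.958%, at 22.5%, and 45154 positions at ends of genes with no strand in the table had 307, or 0.680%, at 20.7%, so these could not be assigned to either end.

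Within genes, nearly fully methylated positions became more frequent from the 5′ to the 3′ end. In 10549 genes of at least 10000 bp, divided into 10 equal parts, 0.453% of sparse positions exceeded 90% in part 1, 2.36% in part 2, 3.66% in part 5 and 4.80% in part 10, with an increase at each step. The mean level was 21.2% in part 1. From part 2 on it rose less in proportion than the share, from 54.3% in part 2 to 60.6% in part 5 and 64.4% in part 10. In the 1 kb before the 5′ end the share was 0.109%, and in the 1 kb after the 3′ end 3.37%, and in the fifth kilobase 2.52%. Positions inside neighbouring genes were not left out of these flanking windows. Positions outside all protein-coding genes had a share of 1.30% at 1001 to 3000 bp from the nearest gene end of either kind. Genes of intermediate length carried the most. The share was 2.59% in genes under 10000 bp, 4.23% from 10000 to 30000 bp, 4.45% from 30000 to 100000 bp, 2.99% from 100000 to 300000 bp and 1.51% in longer genes, although the mean level of the longest genes, 56.8%, was close to the 56.3% of genes of 10000 to 30000 bp.

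**Figure D2:**
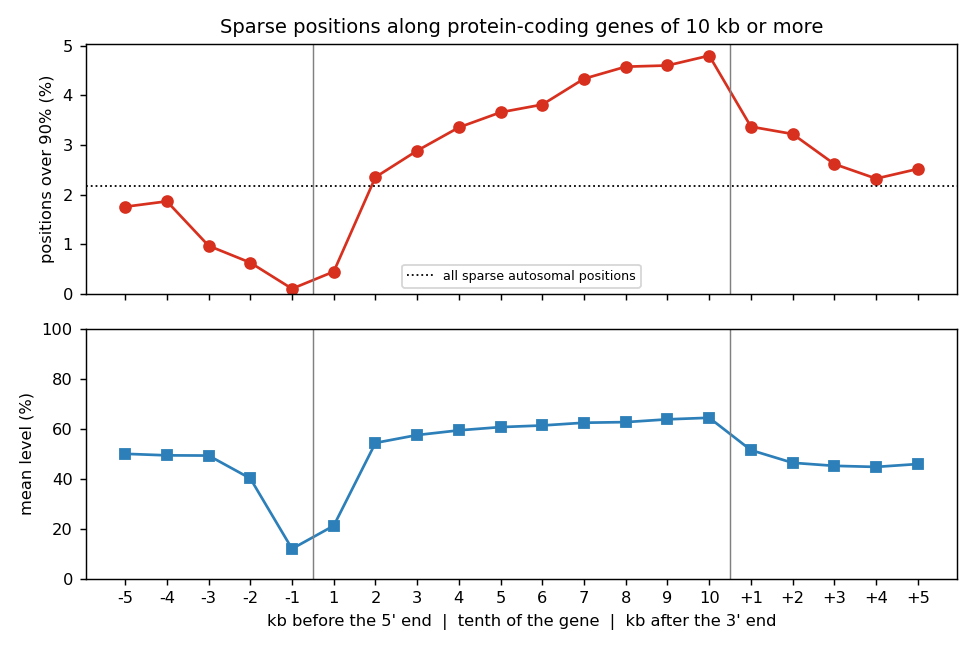
Share of sparse positions with a level over 90% (upper panel, %) and mean level (lower panel, %) in 1-kb windows before the 5′ end, in 10 equal parts of the gene and in 1-kb windows after the 3′ end, for 10549 protein-coding genes of at least 10000 bp. The share climbs from 0.453% in part 1 to 4.80% in part 10, with the share among all sparse positions, 2.17%, as a dotted line. The mean level is 21.2% in part 1 and rises from 54.3% to 64.4% between part 2 and part 10. The windows before and after the genes also hold positions inside neighbouring genes.

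Of 14367 protein-coding genes with a sparse position inside, 5205, or 36.2%, held at least 1 nearly fully methylated position, 1666 held at least 5 and 155 at least 20. The 100 genes with most members held 13.9% of the members inside genes and 3.90% of the sparse positions there. Plec, which encodes the cytoskeletal linker plectin (chr15:76170974-76231378), had the most members, 84 of 366 sparse positions, and 79 to 88 when each column was left out. Tiam1, an activator of the small GTPase Rac, had 82 of 741, and 76 to 85 in the same way, so the order of these genes is not fixed. Gcn1, which activates a stress kinase on stalled ribosomes, had 73 of 262, and its inside was highly methylated as a whole at 83.6% (range 81.9 to 86.3%). Wdfy3, an autophagy adaptor, had 65 of 410, and Trrap, the scaffold of histone acetyltransferase complexes, 59 of 182 at a mean level of 83.1% (range 80.5 to 85.1%). Nomo1, a protein of the endoplasmic reticulum, Cit, the citron kinase of cytokinesis, Dst, a linker of the plakin family, and the atypical cadherin Fat1 had 58, 57, 57 and 56. Cdc42bpb, a kinase bound by Cdc42, had 50. A high number could go with a moderate mean level, as in Fat1 at 60.5% (range 57.5 to 62.2%) and Plec at 67.7% (range 64.9 to 68.9%).

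The highest shares of members, among genes with at least 50 sparse positions inside, were found in Scaf1, a factor that binds the tail of RNA polymerase II, with 35 of 65 (53.8%), and in the zinc finger gene Rlf with 26 of 52 (50%). Usp32, a ubiquitin protease, had 33 of 67 (49.3%), Tln1, which encodes the integrin adaptor talin, 26 of 58 (44.8%), the zinc finger gene Zbtb39 23 of 53 (43.4%) and Sec24b, a coat protein of transport vesicles, 30 of 70 (42.9%). S100a7l2 had 29 of 68, the zinc finger gene Zfp84 22 of 60, the tyrosine phosphatase gene Ptpn2 18 of 50 and Aqr, a helicase of the spliceosome, 23 of 65. The order rests on few positions per gene. Aqr had 18 to 25 members and Zbtb39 21 to 28 when columns were left out, so neighbours in this order were not separated beyond that spread. In 91 of the 4175 genes with at least 50 sparse positions the share exceeded 20%, and 1862 of them had no member.

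The genes without members that had most sparse positions were chosen in a way that favours long genes. Cdh13, an adhesion protein anchored by a lipid (chr8:118140017-119324929), had 0 members at 1079 sparse positions (1 when column 3, 4 or 10 was left out), which allows a share of up to 0.278%, and Rbfox3, a splicing factor of neurons known as NeuN (chr11:118489760-118911597), 0 of 680, which allows up to 0.441%. These limits cover counting error only. Cdh13 was not poorly methylated, with a mean level of 57.6% (range 54.6 to 60%), close to that of all positions inside genes, while Rbfox3 had 46.1% (range 43.9 to 48.9%). The next of the genes without members, Gm37013, Gm38666 and Gm38667, are overlapping models that span the clustered protocadherins on chromosome 18 and share most of their positions. Gm37013 had 663 sparse positions at 38.5% (range 36.5 to 40.9%).

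Most of the named genes had unmethylated starts, as genes in general did. Of the 68 genes named by the rules used here, 38 had a known strand and at least 3 measured positions within 1000 bp of the 5′ end. Of these 38, 0 had a nearly fully methylated position there, 31 had a level under 10% and 34 under 20%. Among all 10359 protein-coding genes measured in the same way, 0.888% had such a position, 76.0% were under 10% and 83.1% under 20%. Scaf1 had 2.65% at its 5′ end (range 0.603 to 6.68%), Tln1 0.849% (range 0.282 to 1.58%) and Usp32 0.556% (range 0.125 to 1.95%). The 4 that reached 20% were Cdc42bpb at 24.3%, the imprinted gene Gnas at 42.5%, Runx1, a transcription factor of blood formation, at 69.7%, and Mov10l1, a helicase of the piRNA pathway, at 73.2%. The starts of Runx1 and Mov10l1 were higher than the inside of the genes, at 46.9% and 64.1%.

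Gene lists differed widely in how many of their positions were nearly fully methylated. Inside all protein-coding genes the share was 3.43%, the median gene had a share of 0 and the mean level was 57.6%. Of all these genes 36.2% had at least 1 member. Counts of genes with a member are not adjusted for the number of positions per gene. The shares below are over the distinct sparse positions inside the genes of a list, with the range when each column was left out, and the level of a list is the median over the columns. They are descriptions, since positions are not replicates. Chromatin and transcription regulators had 382 members at 4770 positions, or 8.01% (range 7.69 to 8.57%), and 34 of 39 measured genes had at least 1. Setd1b and Kmt2d, which methylate histone H3 at lysine 4, had 38 of 142 and 34 of 220, and the corepressor gene Rere 33 of 333. The DNA methylation machinery had 103 of 1192, or 8.64% (range 8.47 to 10.2%), in 12 of 17 genes. Dnmt1 had 24 of 162, the dioxygenase gene Tet3 19 of 242, Uhrf1 15 of 85 and Dnmt3a 10 of 189. Genes of the cytoskeleton and of adhesion had 540 of 8622, or 6.26% (range 6.15 to 6.70%), in 32 of 39 genes, among them Dsp, the desmosome protein desmoplakin, with 42 of 143.

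The methionine and folate cycle had 87 of 884, or 9.84% (range 9.05 to 10.4%), the highest of the 16 lists, in 14 of 27 measured genes. Its range overlapped that of the DNA methylation machinery, so these lists are not ordered. Mthfd1l, a mitochondrial enzyme of the folate pathway, had 21 of 194, the folate carrier gene Slc19a1 15 of 52, the cytosolic enzyme gene Mthfd1 14 of 105 and the purine synthesis gene Gart 7 of 31. Arsenic metabolism and oxidative stress genes had 51 of 811, or 6.29% (range 5.55 to 6.78%), in 11 of 24 genes, and a median gene share of 0, as among all genes. Most of these were in the thioredoxin reductase gene Txnrd1, with 22 of 138, and in the glutathione reductase gene Gsr, with 12 of 108. The other genes of the list together had 17 of 565, or 3.01%. Txnrd1 and Gsr were left out here as the genes with most members, which lowers the share by choice. The value is therefore not comparable with the share inside all genes, and the other lists were not treated in this way. The glucose carrier gene Slc2a1 had 5 of 39, and 8 without column 10, and the aquaporin gene Aqp9 2 of 44. Whether any of these values differ between the arsenic and control groups cannot be told, since the columns name no group.

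Embryonic signalling genes had 128 of 4080, or 3.14% (range 2.89 to 3.46%), near the share inside all genes, in 22 of 48 genes. The receptor genes Igf1r and Lrp5 had 15 each, of 363 and of 116 positions, Fgfr1 12 of 168 and Notch2 10 of 169. Germline genes had 14 of 667, or 2.10% (range 1.80 to 2.70%), with Tdrd9 of the piRNA pathway at 6 of 129, the meiotic cohesin gene Stag3 at 4 of 68, Piwil2 at 2 of 77 and Mov10l1 at 1 of 59. Leaving out a column moved Mov10l1 to 0 without column 7 and to between 2 and 4 without column 3, 4, 5, 6, 9 or 10. Imprinted genes had 28 of 1724, or 1.62% (range 1.51 to 1.91%). Peg3, a paternally expressed zinc finger gene, had 7 of 29 and the receptor gene Igf2r 5 of 87, while Gnas and Trappc9 had 4 each, of 254 and of 449. Without column 3 Peg3 had 4 and Trappc9 7, and without column 10 Trappc9 had 2. Parental alleles were not told apart.

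The lists of genes of differentiated tissues had few or no members, also where their level was near the average. Neuronal channels and synapse genes had 44 of 8749, or 0.503% (range 0.480 to 0.549%), at a level of 50.1% (range 48.6 to 52.7%), and 28 of 40 genes had none. Of the 44, 20 were in Dlgap4, a scaffold of the postsynaptic density, 7 in the calcium channel gene Cacna1c, 5 in the glutamate receptor gene Grik3 and 3 in Dlgap1. These genes are long, at 150731, 610145, 223915 and 852341 bp in this order. Among all genes the share was 2.99% at 100000 to 300000 bp and 1.51% in longer genes. The lists were not matched for gene length. Genes of muscle and heart structure had 18 of 2249, or 0.800% (range 0.711 to 1.07%), all in the titin gene Ttn, although their level of 56.5% (range 54.8 to 59.8%) was close to that inside all genes. Liver enzymes and plasma proteins had 0 of 493, which allows up to 0.609%, at a level of 52.9% (range 51.0 to 56.0%). Keratins and skin barrier genes had 5 of 414, or 1.21%, and 0.725% without column 1. Of the 5, 3 were in Ppl, a plakin of the skin, and 1 each in Evpl and Tgm1. Evpl had 2 without column 5, and Tgm1 had 0 when column 1, 5, 6, 8 or 9 was left out. These shares depend on how genes were assigned to lists. Dst, of the plakin family as Ppl is, and the desmosome gene Dsp stood in the list of the cytoskeleton and of adhesion. They had 57 of 663 and 42 of 143.

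The 4 lists of markers of trophoblast, of visceral endoderm and yolk sac, of maternal decidua, and of blood and immune cells had low shares. Trophoblast markers had 26 of 1463, or 1.78% (range 1.64 to 2.05%), with 10 of 74 in the transcription factor gene Tead4, 9 of 115 in the cadherin gene Cdh3, 3 of 44 in Ets2 and 2 of 156 in Fgfr2, which had 4 or 5 when column 1, 5, 6 or 10 was left out. Visceral endoderm and yolk sac markers had 2 of 944, both in the endocytic receptor gene Lrp2. Maternal decidua markers had 1 of 601, in Wnt4, and 0 without column 6. Blood and immune cell markers had 3 of 615, all in Runx1, which became 1 without column 1 and 5 without column 5. Trophoblast, endoderm, decidua and blood lists had mean levels of 39.9, 40, 39.9 and 43.8%, below the average inside genes. No expression was measured in this series, and the cell makeup of the samples was not tested.

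**Figure D3:**
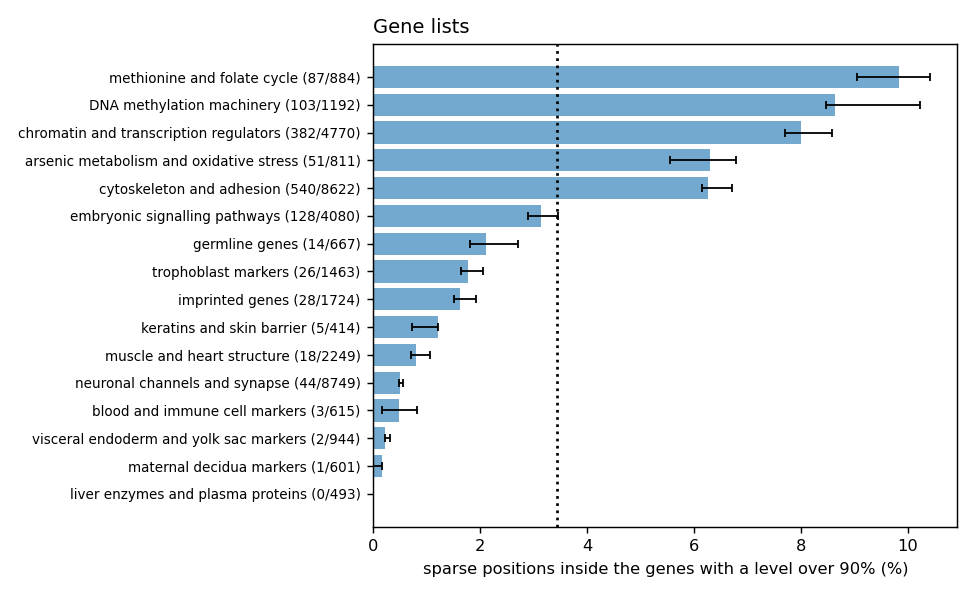
Share of sparse positions inside the genes of 16 lists with a level over 90% (x axis, %); whiskers span the values with each library column left out, and the numbers in brackets are members and sparse positions. The methionine and folate cycle stands highest at 9.84% and the liver list lowest at 0 of 493, on either side of the dotted line at 3.43%, the share inside all protein-coding genes. The lists were not matched for gene length.

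Non-coding genes also held nearly fully methylated positions. Among them the long non-coding RNA AI506816 (chr5:23692261-23712667, minus strand) had the most members, 113 of 148 sparse positions, or 76.4%, and 112 to 118 when each column was left out. It was singled out after its values were seen. Between the first and last positions of its highly methylated stretch, chr5:23700419-23710707, 173 positions were measured at any density, of which 146 exceeded 90% and 2 were under 80%. The mean level of the stretch over the columns had a lowest value of 92.1%, a median of 93.3% and a highest value of 95%, so each column was high. A predicted protein-coding model, Gm42226, lies within the stretch and shares positions with it. At the right end of AI506816, which is its 5′ end, 23 measured positions had a median of 1.87% and a range from 0 to 3.16%. The 100 bases before the start are shown with the CG of the measured positions in capitals, each of which had a level between 0 and 1.27%.
AI506816, chr5:23712668-23712767, minus strand: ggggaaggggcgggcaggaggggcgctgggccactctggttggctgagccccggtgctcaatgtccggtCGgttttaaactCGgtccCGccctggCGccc
The level thus stepped from 1.68% in the 1-kb window centred 0.167 kb inside the start to 94.1% in the next measured window, at 2.17 kb. Toward the 3′ end, the window 19.2 kb from the start had 74.1%. The window centred at 20.2 kb had 40.7%, but all its 12 measured positions lay past the 3′ end, outside the gene. Next among genes not classed as protein-coding came Gm36816, with 29 of 75, in the same interval as the G protein subunit gene Gng12. Pvt1, next to the oncogene Myc, had 22 of 261, and Mup-ps15 in the major urinary protein cluster 19 of 36. Gm30124, whose gene type is given only as other, had 19 of 97. Gm12992 had 18 of 74, in an interval that overlaps the protein-coding genes Srsf4 and Tmem200b. Members in such overlaps cannot be assigned to 1 gene.

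**Figure D4:**
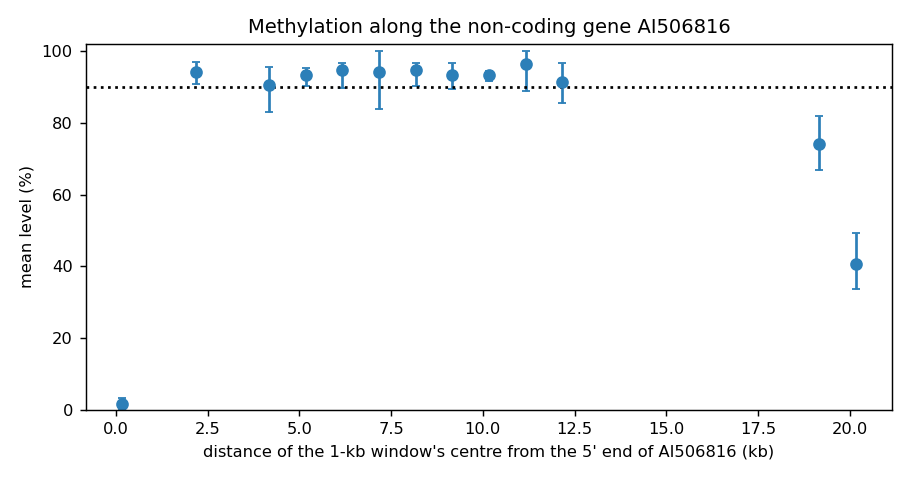
Mean methylation level (y axis, %) of all measured positions in 1-kb windows along AI506816, by the distance of the window's centre from the 5′ end of the gene (x axis, kb); whiskers span the 10 library columns. The window at the start has 1.68%, and the windows with measured positions between 2.17 and 12.2 kb lie at 90.5 to 96.4%. The measured positions of the farthest window, at 20.2 kb, lie past the 3′ end of the gene.

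Outside protein-coding genes and their ends, 7745 positions were nearly fully methylated. Of these, 790 lay in long non-coding RNA genes, where the share was 0.780% of 101292 sparse positions, and 266 in pseudogenes, where it was 1.72% of 15451. The share did not follow the distance from genes. It was 1.30% at 1001 to 3000 bp from the nearest gene end, 1.14% at 30001 to 100000 bp and 1.31% beyond, while the mean level rose over the same distances from 47.3% to 57.4%. Repeats were not analysed.

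Chromosomes differed little beside the difference between gene bodies and the rest. Chromosome 5 had both the most members, 2963, and the highest share of sparse positions, 2.53% (95% Wilson interval 2.44 to 2.62%), followed by chromosome 10 at 2.52% (interval 2.41 to 2.62%) and chromosome 15 at 2.33%. Of the members on chromosome 5, 113 lay in AI506816 alone, at 148 sparse positions. The lead over chromosome 10 is small, and the rank without this gene was not computed. Chromosomes 11, 6, 2 and 14 were lowest at 1.91% (interval 1.83 to 1.99%), 1.93%, 1.95% and 1.96%. These intervals treat positions as independent and are too narrow, since positions of a fragment share reads. Chromosome 5 stayed first in 7 of 10 runs that left out a column and chromosome 11 last in 8, so the order of neighbours is not fixed. Chromosome 11 was low although 50% of its sparse positions lay inside genes, of which 3.01% were members, against 3.87% of those inside genes on chromosome 5. In windows of 1 Mb with at least 100 sparse positions, 2388 in all, the median share was 1.59%. The highest was 19.7%, in the window of chromosome 5 that holds AI506816, and 276 windows had no member.

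Nearly fully methylated positions clustered, and what lay around them was highly methylated too. Of the members, 59.0% had a member at another CpG within 100 bp, their own opposite strand left out, against 6.16% of all sparse positions and 9.33% of those inside genes. With both strands counted, 12193 members stood alone, and 1057 runs with gaps of at most 100 bp held 5 or more. The longest run lay in Plec (chr15:76175491-76176221), with 29 members among 38 measured positions and a mean level of 91.9% (range 88.2 to 94.4%). The next was in Sec24b (chr3:130044952-130045339), with 20 of 24, where the lowest position had 45.8%. Other positions at 101 to 300 bp from a member had a mean level of 80.4%, against 39.0% around all sparse positions, and at 301 to 1000 bp 78.4% against 26.2%. At 3001 to 10000 bp the values were 48.1% and 39.1%, and beyond 10000 bp 40.1% and 39.6%, so the higher level extended over a few kilobases. With other members left out, the level at 101 to 300 bp was 78.0%. Members outside genes had surroundings at 101 to 300 bp of 77.4%, against 81.4% for those inside genes, and all sparse positions of these classes 51.4% and 49.6%.

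**Figure D5:**
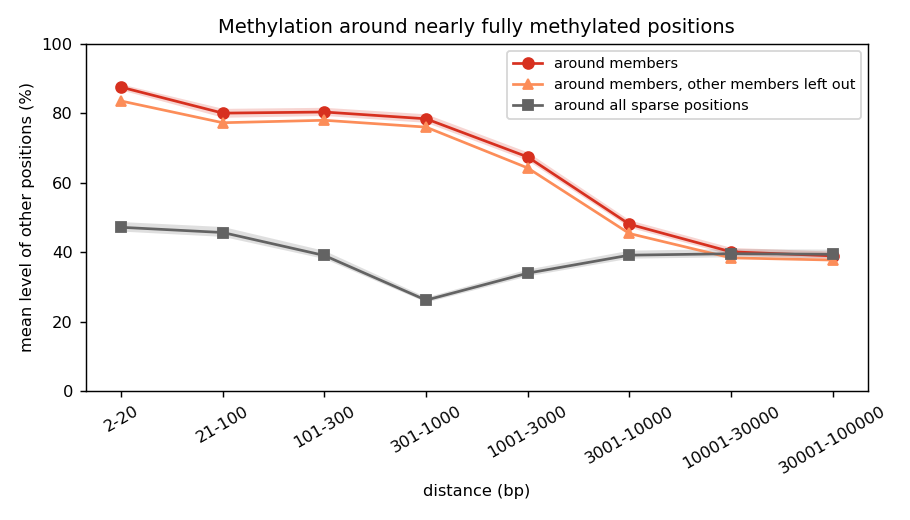
Mean methylation level of other positions (y axis, %) by their distance in bp (x axis) from nearly fully methylated positions, from the same with other members left out, and from all sparse positions; bands span the 10 library columns. The curve around members stays at 78.4% or higher up to 1000 bp and meets that around all sparse positions beyond 10000 bp.

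Reads of the opposite strand of the same CpG did not enter the choice of a member and gave a second measurement. The opposite strand was measured at 16127 members and had a mean level of 88.2% (87.5 to 88.9% in single columns) and a median of 90%. The opposite strand exceeded 90% at 49.7% of them (8020), against 1.92% of all sparse positions with the opposite strand measured, and it exceeded 80% at 95.6%, against 11.9%. The 8123 opposite strands that were not themselves members had a mean of 83.7%. The strands disagreed at few CpGs. At 272 members, or 1.69%, the opposite strand was under 50%, and at 178 of these under 10%. The 80 members with only methylated calls showed more disagreement, since the 23 of them with the opposite strand measured had a median of 73.9% there and 2 exceeded 90%. The one with the most reads, position 84760301 of chromosome 6, plus strand, inside the exocyst gene Exoc6b, was called methylated in all of 1052 reads, with 36 to 132 reads per column (lower bound of the 95% Wilson interval 99.6%). The next, position 159778424 of chromosome 3, lay outside genes, with 565 reads.

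The level of members also held in library columns that had not chosen them, with a small fall. When positions were chosen on 9 columns and measured in the tenth, their mean level there was between 89.8% in column 7 and 91.4% in column 1, with a median of 90.5%. In the column left out, 55.3 to 64.0% of these positions exceeded 90% and 0.790 to 2.75% were under 70%, the latter highest in column 9. Over all 10 columns, 20293 members, or 60%, exceeded 80% in each column, and 1945, or 5.75%, were under 70% in at least 1. Members lie near the upper limit of the level by the rule, which bounds this spread. Single positions are read 26 to 43 times per column in the median, so the level of a position in 1 column has a coarse scale, and the part of counting error in this spread was not tested. Members had a median level of 92.0%, 3362 of them exceeded 95%, and their median of 361 summed reads was close to the 363 of all sparse positions.

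The surroundings on the scale of 100 bp also mattered within the rule's limit. Among positions with 1 to 2 measured positions within 100 bp, the position itself included, 1.32% exceeded 90%, with 3 to 5 it was 1.90%, with 6 to 10 2.42% and with 11 to 15 2.75%, although the mean level fell over the same classes from 56.6% to 39.6%. Inside genes the share rose from 2.34% to 4.45%. At more than 15 positions, outside the rule, 1.07% exceeded 90%, at a mean level of 12.6%. Levels under 10% were found at 6.15%, 5.59%, 14.7% and 34.0% of the positions of these 4 classes, so the densest of them held a larger share of positions at both extremes than the most isolated.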

How the data were processed

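Cytosine methylation of 10 samples of mouse embryo DNA was measured by reduced representation bisulfite sequencing. The deposited table holds raw counts per position and library column, namely coverage, methylated and unmethylated calls, per the file headers. Trim Galore, Bismark, methylKit and mm10 are named in the submitters' processing notes, and their versions and settings were not given in sources used here. As tested on the table, at least 10 reads covered each position in each column, and methylated plus unmethylated calls equalled the coverage. Of 2137826 rows, 2 that repeated a position were left out. The 30 count columns carry the numbers 1 to 10 and match no single sample title, so 0 were tied to a sample and no test between groups was made. No source names molecular identifiers, so intervals cover counting error only.

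A level is methylated calls over coverage, in percent, from the summed columns unless a range over columns is given. Mean levels weight positions equally. Genes came from RefSeq GRCm38.p6, the assembly mm10 corresponds to, without exons, and strand from its promoter table. Positions up to 1000 bp from the end of a protein-coding gene were assigned to gene ends, the rest to the inside of such genes or to the outside. Genes named are the 10 with most members, the 10 with the highest share among those with at least 50 sparse positions inside, the 5 with most sparse positions and no member, and up to 4 with most members of each of 16 lists (455 genes). The members and lists were chosen with earlier results of these data known. The counting functions were tested on simulated positions. Python 3.11.15, numpy 2.4.6, pandas 2.3.3 and matplotlib 3.10.9 were used.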

Additional observations from a re-analysis of the deposited data

Results flagged for a closer look

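Of 80 measures examined over the 10 library columns, of which 68 were the mean levels inside named genes, 4 held a column set apart by Dixon's test. Chance sets about 1 in 20 such measures apart, so about 4 would be set apart by chance, and the measures depend on each other. The columns hold both groups of the study. In column 9, 7.93% of sparse positions exceeded 90% on its own reads, and the next column had 6.14%. Column 9 had a median of 30 reads per sparse position, within the range from 26 to 44. Without it, 33589 positions met the rule, 71.6% of them inside genes. The inside of Zfp84 had 83.5% in column 6, against 86.2 to 89% in the others. The inside of Dnmt1 had 73.9% in column 6, against 76.7 to 79.9%. The inside of Igf1r had 75.8% in column 1, against 70.3 to 72.9%.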

How the results depend on the processing

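Of 88 values under alternative settings, 69 stayed close to the reported ones, including all 50 that left out a library column. Leaving out a single column of those summed changes these values little by construction, and the limit for the number of members was wide. The other 19 values moved, none of them by leaving out a column. Without each column in turn, the number of members ranged from 33563 to 35578, the share inside genes from 71.3 to 71.6%, at gene ends from 5.56 to 5.64%, outside genes from 22.8 to 23.1%, and the level of the opposite strand from 88.0 to 88.1%. A threshold of 85% gave 102476 positions, 69.8% inside and 24.6% outside genes, an opposite strand at 85.6% and a level of 87.6% in the column left out. A threshold of 95% gave 3362 positions, 70.2% inside genes, 5.03% at gene ends and 24.7% outside. With at most 5 measured positions within 100 bp there were 12065, 76.3% inside and 18.2% outside genes. With at least 20 reads in each column there were 17969, and the shares stayed close. Gene-end windows of 2000 bp gave 66.9% inside, 11.3% at ends and 21.8% outside, against 40.5, 20.8 and 38.7% of all sparse positions. With all genes of the table, 71.7% lay inside, 9.28% at ends and 19% outside, against 48.7, 20.3 and 31.0% of all sparse positions. Other positions at 101 to 1000 bp had a level of 79.5%, and 77.1% without members. In these settings the share inside genes stayed above that of the sparse positions wherever both were computed. No paired analysis was possible because the count columns carry no sample or replicate name.

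Positions of a fragment share reads and are not independent. Only positions covered in each column were deposited in the table used, the gene table holds no exons, and the strand of a gene was known only through its promoter entry.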

Other observations

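Zinc finger genes with a symbol starting in Zfp, a group chosen after the values were seen, had 667 nearly fully methylated positions at 10717 sparse positions inside, or 6.22% (range 6.22 to 6.66% with each column left out), against 3.43% inside all protein-coding genes. Of 288 such genes, 127 had at least 1, and of all 14367 protein-coding genes with a sparse position inside, 5205, or 36.2%, did. The number of positions per gene was not adjusted for.

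Some windows of 1 Mb with a high share had few or no sparse positions inside protein-coding genes. On chromosome 4, from 61000001 to 62000000, in the cluster of major urinary protein genes, 37 of 264 sparse positions exceeded 90%, and 8.71% of the sparse positions there lay inside protein-coding genes. On chromosome 13, from 87000001 to 88000000, it was 24 of 205, and 0% of these sparse positions lay inside a protein-coding gene. A run of 15 members among 16 measured positions within 200 bp lay outside genes on chromosome 13, from 32351570 to 32351769, with a mean level of 93.8% (range 86.0 to 97.6%).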
